A study of Mus musculus with 16 samples.

Results

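Transcript levels were compared between hearts of AKIP1-overexpressing mice after ischemia/reperfusion (I/R) injury (TG_IR) and after a sham operation (TG_Sham), as given by the sample titles. These were 8 of the 16 arrays of the series, 4 TG_IR and 4 TG_Sham, 1 for each mouse, and each array carried 25697 probes. All mice were of the strain C57BL/6J and both groups carried the AKIP1 transgene, so that the comparison shows the response to injury within transgenic hearts. The other 8 arrays were wild-type littermates, 4 after I/R (WT_IR) and 4 after sham (WT_Sham), and are used here only to set the transgenic response against the wild-type one. The tissue is labelled as cardiac. The promoter that drives the transgene, the number of transgenic lines, the age of the mice, the part of the heart and the time after reperfusion are not stated in the labels.

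I/R injury follows when a coronary artery is closed and then reopened. Heart muscle cells are damaged both by the lack of oxygen and by the return of blood, and the injured wall answers with a stress response of the surviving muscle cells, entry of white blood cells and the start of scar formation. AKIP1 (A kinase interacting protein 1) binds the catalytic subunit of protein kinase A, the kinase through which cyclic AMP and adrenergic signals act on heart muscle. The study asked whether overexpression of AKIP1 alters such injury.

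The arrays were Illumina bead arrays, on which each probe reports the brightness of 1 transcript's labelled RNA. The deposited file names probes by their Illumina ID only, and a RefSeq gene table held 0 of these IDs. Results are therefore given for groups of probes set by direction, size and starting brightness, and at most 2 single probes are named in each direction. The AKIP1 transcript and the marker genes of heart muscle could for the same reason not be looked up. In whole tissue, fewer cells of a type and less RNA per cell cannot be told apart.

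The 8 arrays were alike in overall brightness. Their median intensities lay between 178.8 and 178.9, and single probes reached from 161.5 to 25213 on the linear scale as deposited. Across probes, arrays of the same group correlated with Pearson's r between 0.990 and 0.997, and TG_IR arrays correlated with TG_Sham arrays with r between 0.958 and 0.979. Probes are not independent replicates, and these values only describe the arrays. The first principal component of the 8 arrays held 73.5% of the variance, with the TG_IR arrays at 11.4 to 20.5 and the TG_Sham arrays at −18.6 to −13.0. No array of either group lay on the other group's side.

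The large changes after I/R in transgenic hearts were mostly rises. Of 25697 probes, 4203 (16.4%) passed limma's test at an adjusted p under 0.05 and are referred to as called. In TG_IR, 2079 probes were higher than in TG_Sham (8.09%), and 2124 were lower (8.27%), so that 49.5% of the calls were rises. The distributions of the arrays nearly coincided as deposited, and an even number of rises and falls cannot be told apart from the effect of equalising them. Only 149 of the calls (0.580% of all probes) exceeded 2-fold, 126 of them rises and 23 falls. More than 4-fold changes were seen in 20 rises and 0 falls, and more than 8-fold changes in 6 rises. Falls had less room than rises. No intensity lay below 161.5, close under the array medians of 178.8 to 178.9, whereas the highest was 25213. The 23 falls above 2-fold still had means of 242.6 or more in TG_IR, and what limits their size was not tested. The difference was taken between group means of log2 intensities, with the spread estimated from these 8 arrays alone, with Benjamini-Hochberg adjustment across all probes.

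**Figure D1:**
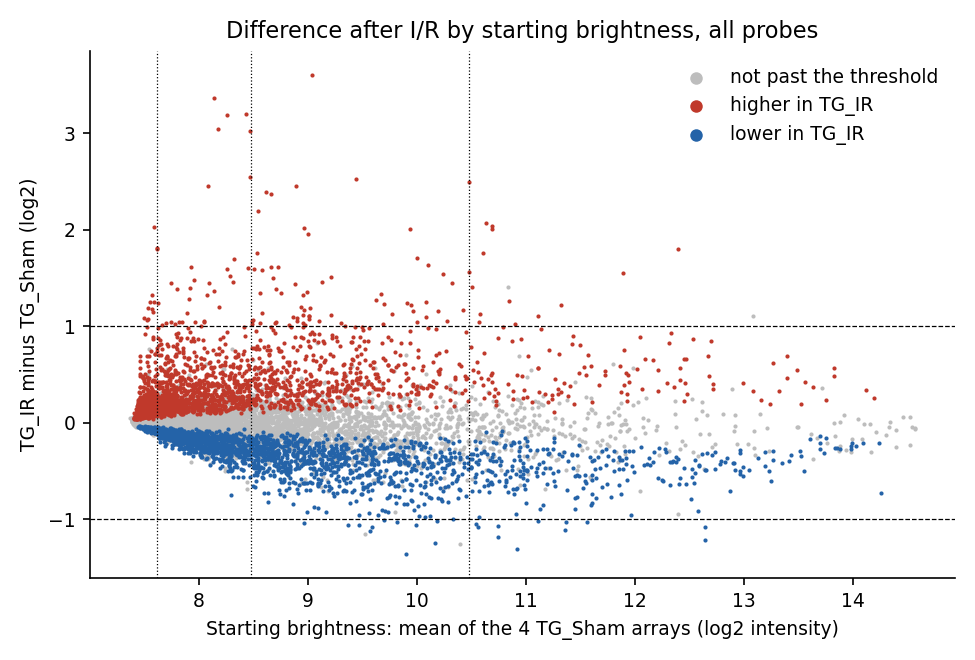
The difference TG_IR minus TG_Sham (log2, vertical) of all 25697 probes is plotted against the mean of the 4 TG_Sham arrays (log2 intensity, horizontal), with probes past an adjusted p of 0.05 in red (higher in TG_IR) or blue (lower in TG_IR) and the rest in grey. Dashed lines mark 2-fold and dotted lines the bounds of the brightness classes. Rises reach 3.61 log2, whereas the falls end at −1.36 log2. No intensity lay below 161.5, and the falls above 2-fold had means of 242.6 to 3013 in TG_IR. What limits the size of the falls was not tested.

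Most called changes were small. The median rise was 0.28 log2 (1.21-fold) and the median fall was −0.27 log2 (1.20-fold). Of the rises, 64.5% were below 1.3-fold, as were 70.1% of the falls. The sizes parted toward the upper end: 1 in 4 rises exceeded 0.49 log2 and 1 in 10 exceeded 0.81 log2, whereas among falls the same shares lay beyond −0.41 and −0.60 log2. Under 2-fold there were 1953 rises and 2101 falls. Nearly every probe past 2-fold was also called: of 153 such probes, 2 that were higher and 2 that were lower in TG_IR did not pass the test.

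The 4 TG_IR arrays all lay outside the range of the 4 TG_Sham arrays for 4033 of the 4203 calls, 2011 rises and 2022 falls. Among all 25697 probes, such a gap between the groups was seen in 5143 (20.0%). This left 1110 probes without overlap that were not called. Among the 126 rises above 2-fold, 124 had no overlap, and so had all 23 falls above 2-fold.

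The strongest rise was that of ILMN_2710905. Its intensity was 7820, 3392, 7830 and 8057 on TG_IR replicates 1 to 4, against 416.0, 788.3, 516.1 and 451.0 on TG_Sham replicates 1 to 4. TG_IR replicate 2 stood well below the other TG_IR arrays, and still above every TG_Sham array. The log2 mean was 12.64 ± 0.61 in TG_IR and 9.04 ± 0.41 in TG_Sham (SD, n = 4 each), a 12.2-fold difference (3.61 log2, SE 0.32, limma adjusted p = 0.000417). On slide 1 alone, with 2 arrays per group, its difference was 3.17 log2 and did not pass (limma adjusted p = 0.0783).

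The next largest rise was that of ILMN_2952275, a probe that was dim in sham hearts. It read 3145, 2082, 3222 and 3357 on TG_IR replicates 1 to 4, against 265.5, 343.8, 292.5 and 233.2 on TG_Sham replicates 1 to 4. Again replicate 2 was the lowest TG_IR array, and the groups lay far apart. The log2 mean was 11.50 ± 0.32 in TG_IR and 8.13 ± 0.24 in TG_Sham (SD, n = 4 each), a 10.3-fold difference (3.37 log2, SE 0.18, limma adjusted p = 6.36e-05).

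The strongest fall was that of ILMN_1253966. It read 339.3, 374.8, 399.9 and 375.0 on TG_IR replicates 1 to 4, against 1027, 914.9, 913.6 and 967.6 on TG_Sham replicates 1 to 4. Arrays within either group differed little. The log2 mean was 8.54 ± 0.10 in TG_IR and 9.90 ± 0.08 in TG_Sham (SD, n = 4 each), a difference of −1.36 log2 (SE 0.06, limma adjusted p = 3.19e-05).

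For ILMN_2616226, the fall went with an unequal spread in the 2 groups. Its intensity was 775.8, 786.7, 779.5 and 777.9 on TG_IR replicates 1 to 4, against 2419, 1263, 2827 and 1623 on TG_Sham replicates 1 to 4. The TG_IR arrays nearly coincided, whereas the TG_Sham arrays were spread widely and all stood above them. The log2 mean was 9.61 ± 0.01 in TG_IR and 10.92 ± 0.53 in TG_Sham (SD, n = 4 each), a difference of −1.31 log2 (SE 0.23, limma adjusted p = 0.00721). On slide 1 alone its difference was −1.16 log2 and did not pass (limma adjusted p = 0.198).

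**Figure D2:**
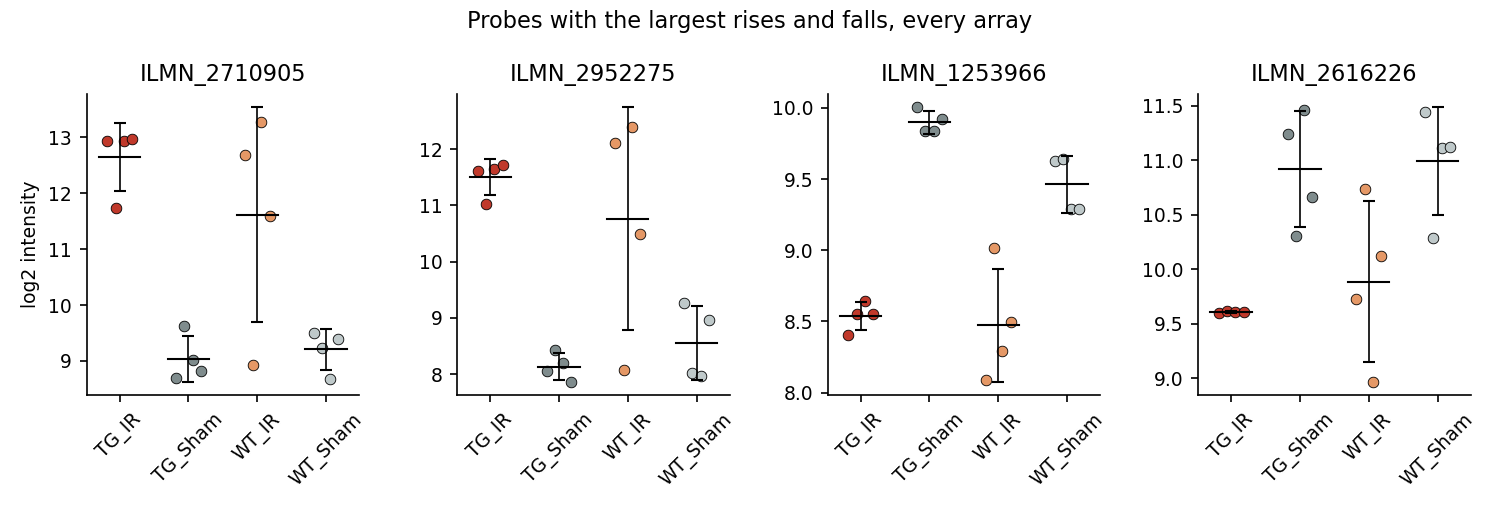
Log2 intensity of the 2 probes with the largest rises (left) and the 2 with the largest falls (right) after I/R in transgenic hearts, with 1 point per array, horizontal lines at the group mean and error bars of 1 SD (n = 4). The TG_IR arrays of ILMN_2616226 lie between 9.60 and 9.62, and its TG_Sham arrays between 10.30 and 11.46. In the WT_IR group of ILMN_2710905, 1 array lies at 8.93, among the sham arrays.

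Probes were then sorted by starting brightness, the mean of the 4 TG_Sham arrays. No intensity lay below 161.5, which is taken here as an offset left in the deposited values. The array median is taken as the background level, as no detection p-values were available. Near background were 16934 probes (65.9%) at most 0.14 log2 (10%) above the median. The others were dim (up to 1 log2 above, 5302 probes), middle (up to 3 log2, 2753 probes) or bright (708 probes). Their bounds correspond to intensities of 196.4, 356.4 and 1426. Class medians in TG_Sham were 174.4, 237.0, 541.8 and 2619 in this order.

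The share of probes called grew with starting brightness, against 16.4% over all probes. It was 3.83% near background, 33.6% among dim, 49.7% among middle and 56.8% among bright probes. The SE grew too, at a median of 0.016 log2 near background, 0.038 in dim, 0.068 in middle and 0.076 in bright probes. The measured differences grew as well. The median rise was 0.13 log2 near background, 0.26 in dim, 0.43 in middle and 0.49 in bright probes. The median fall was −0.07, −0.18, −0.38 and −0.45 log2 in the same order.

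Direction changed along the brightness scale. Near background there were 532 rises and 116 falls, so that 82.1% of the calls were rises. In dim probes the directions were even, with 876 rises and 908 falls (49.1% rises). In middle probes 542 rose and 827 fell (39.6% rises). Among bright probes, 129 rose and 273 fell (32.1% rises), which is 18.2% and 38.6% of that class. A probe near background can hardly fall: a drop from the upper bound of that class to the lowest intensity on the 8 arrays would be −0.28 log2. The largest fall there was −0.12 log2. The sham arrays enter both the brightness and the difference, so the classes were also formed from the 4 WT_Sham arrays, which are in neither. Rises then made up 77.6% of the calls near background, 50.1% in dim, 40.1% in middle and 31.8% in bright probes. Without TG_Sham replicate 4, 347 rises were called near background. Falls near background numbered 63, 72, 56 and 66 without TG_IR replicates 1, 2 and 3 and TG_Sham replicate 4 in turn. On slide 2 alone, 219 rises and 13 falls were called near background.

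**Figure D3:**
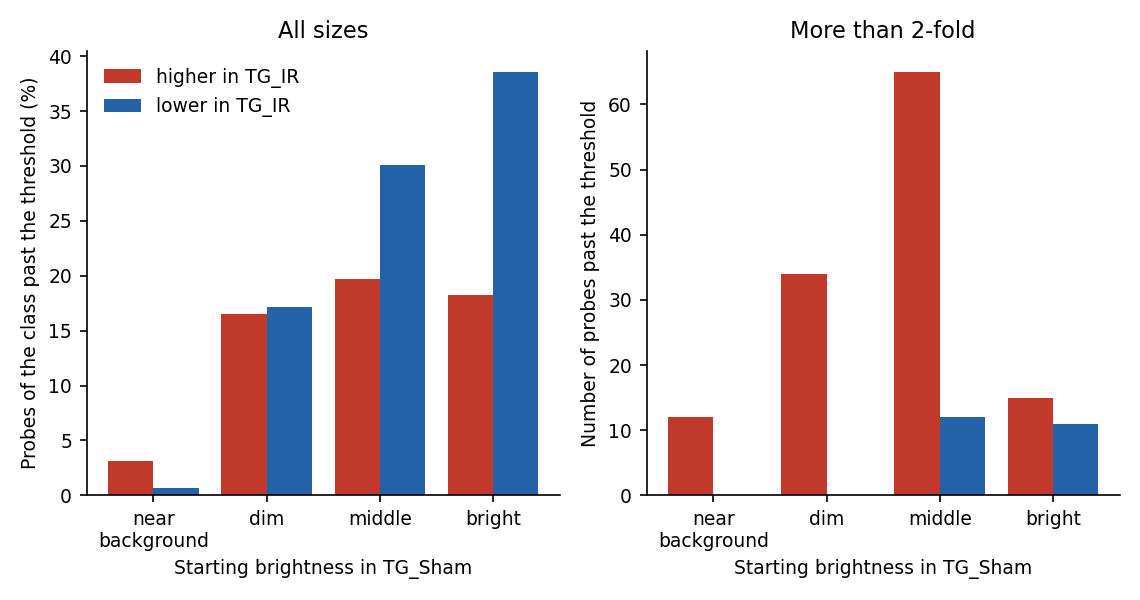
Left, percent of the probes of each starting brightness class (horizontal, from TG_Sham) that were higher (red) or lower (blue) in TG_IR at an adjusted p under 0.05. Right, number of called probes that changed more than 2-fold. Falls reach 38.6% of the bright probes, whereas 65 of the 126 rises above 2-fold started in the middle class.

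Large rises and large falls started from different levels, but the lowest intensity sets part of this in advance. Dim probes had a median of 237.0 in TG_Sham, and no intensity on the 8 arrays lay below 161.5. A 2-fold fall could therefore hardly start below the middle class, whereas a rise could start anywhere. Of the 126 rises above 2-fold, 12 started near background, 34 dim, 65 middle and 15 bright. Their median intensity was 1147 in TG_IR and 420.7 in TG_Sham. Of the 23 falls above 2-fold, 12 started middle and 11 bright, with a median intensity of 643.4 in TG_IR and 1287 in TG_Sham. After I/R, 0 of these 23 stood at or below the near-background bound and 19 were still above the dim class, so that large falls left a measurable signal.

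The 6 rises above 8-fold started low and ended bright, which the class bounds largely set in advance. The bright bound of 1426 lies 3 log2 (8-fold) above the median, so such a rise from the median or higher must end bright. The highest intensity of 25213 also limits how high it can start. Their means lay between 2387 and 6396 in TG_IR, against 280.9 to 525.6 in TG_Sham. In TG_Sham, 5 of the 6 were dim and 1 was in the middle class. All 6 stood in the bright range after I/R, as did 19 of the 20 rises above 4-fold and 51 of the 126 above 2-fold, of which 4 and 15 had been bright in TG_Sham already. The 12 rises above 2-fold that started near background had means of 382.6 to 784.2 in TG_IR and 180.4 to 196.3 in TG_Sham. Of these, 0 became bright, which would have taken a step from at most 196.4 to above 1426. At the other end, the 15 bright probes that rose above 2-fold reached 3121 to 18815 in TG_IR, against 1429 to 5400 in TG_Sham.

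An offset in the values would shrink fold changes, and size classes depended on how background was treated. After normexp background correction, 274 rises and 64 falls exceeded 2-fold and 39 rises exceeded 4-fold, and the number of calls was 4668. The count of falls above 2-fold was 15 without TG_IR replicate 1 and also 15 without TG_Sham replicate 4.

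The 4 TG_IR arrays differed in the strength of the response. It was summarised per array by a response score, the mean over the 4203 called probes of the distance from the TG_Sham mean in log2, counted as positive in the direction of the call. TG_Sham arrays were scored against the other 3. The score was 0.393, 0.348, 0.350 and 0.305 on TG_IR replicates 1 to 4, against 0.011, 0.033, −0.011 and −0.032 on TG_Sham replicates 1 to 4. The order was thus replicate 1, then 3 and 2 at nearly the same score, then 4, and the strongest score was 1.29 times the weakest. The TG_IR scores averaged 0.349 ± 0.036 (SD, n = 4), and TG_Sham scores had an SD of 0.028. Replicates 2 and 3 differed by less than that spread. As the same arrays chose the probes, the distance between the groups is a description with no test.

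Rises and falls gave the same first and last array. Over the 2079 rises the score was 0.442, 0.373, 0.398 and 0.336 on TG_IR replicates 1 to 4. Over the 2124 falls it was 0.346, 0.325, 0.303 and 0.274, and replicates 2 and 3 changed places. The ratio of replicate 1 to replicate 4 was 1.32 for rises and 1.26 for falls. Rises above 2-fold gave 1.63, 1.41, 1.54 and 1.33 log2 on replicates 1 to 4, and falls above 2-fold gave 1.20, 1.17, 1.04 and 0.996 log2. TG_Sham replicates 1 to 4 scored −0.003, 0.183, −0.028 and −0.151 log2 over these rises. Over these falls they scored 0.044, 0.261, −0.176 and −0.128 log2, higher on slide 1 than on slide 2. The order over changes above 2-fold therefore depends on which sham arrays serve as reference.

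Replicate 2 kept a different place depending on starting brightness. Near background it was the weakest TG_IR array, at 0.143 against 0.200, 0.185 and 0.167 on replicates 1, 3 and 4. Among bright probes it came second, at 0.567 against 0.588, 0.498 and 0.427 on replicates 1, 3 and 4. Among the 20 rises above 4-fold it was again the weakest, at 2.32 log2, while replicates 1, 3 and 4 stood at 2.76, 2.66 and 2.46 log2. Replicate 1 had the highest score in every brightness class over all calls. For the 116 falls near background, the 4 scores lay between 0.0707 and 0.0737 and had no clear order.

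**Figure D4:**
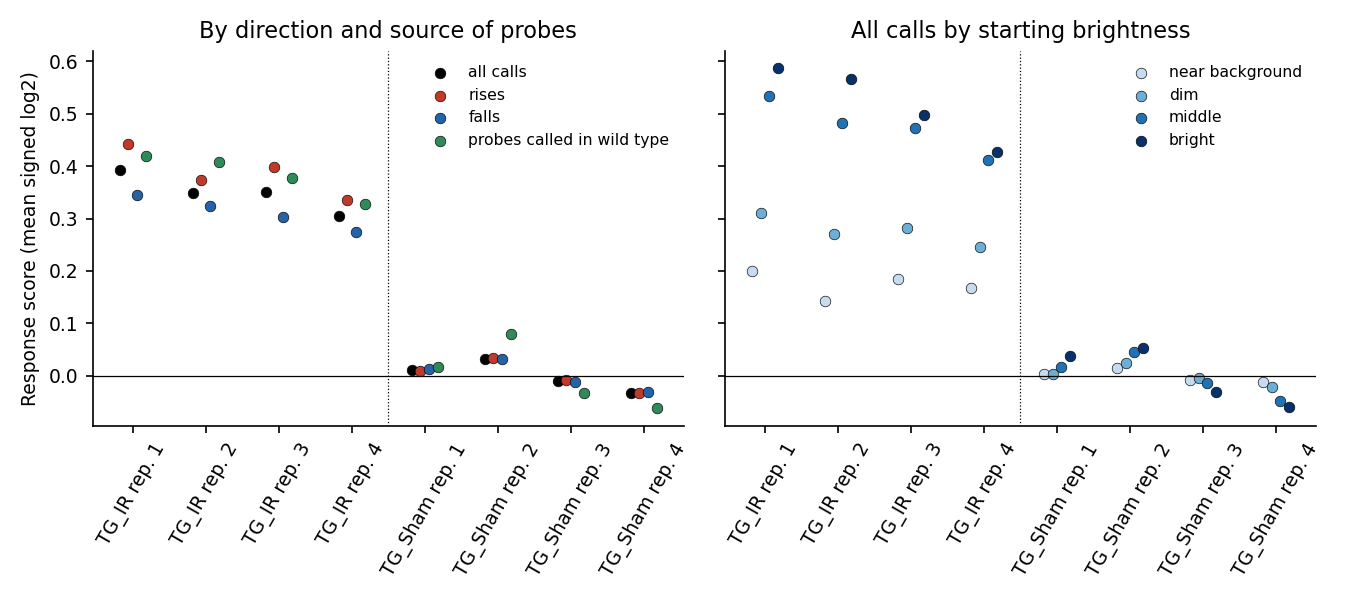
Response score (mean signed log2 distance from the TG_Sham mean, vertical) of each TG_IR and TG_Sham array (horizontal), on the left over all calls, rises, falls and the probes called in wild type, and on the right over all calls of each starting brightness class. Over all calls the TG_IR arrays lie between 0.305 and 0.393, and the TG_Sham arrays between −0.032 and 0.033.

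Counts of probes more than 2-fold higher gave the order 1, 3, 2, 4 as well. More than 4-fold higher were 24, 17, 21 and 19 probes on TG_IR replicates 1 to 4, with replicate 2 last. Set against the TG_Sham mean, 200, 129, 149 and 92 probes were more than 2-fold higher on TG_IR replicates 1 to 4. Against the mean of the other 3 sham arrays, the TG_Sham arrays had 1 to 6 such probes. More than 2-fold lower were 54, 51, 18 and 18 probes on TG_IR replicates 1 to 4, against 0 to 5 on TG_Sham arrays. Against the mean of all 4 TG_Sham arrays, replicates 1 and 2 (slide 1) carried more large falls than replicates 3 and 4 (slide 2). Within each slide, the 23 called falls above 2-fold were no larger on slide 1. Their median difference was −1.08 log2 on slide 1 and −1.14 log2 on slide 2. A cause was not tested.

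At single probes, replicate 1 was often the most extreme array. It was the highest of the 4 TG_IR arrays for 47.3% of the rises, against 21.7%, 19.1% and 11.8% for replicates 2, 3 and 4. It was the lowest for 38.0% of the falls, where replicates 2, 3 and 4 had 30.6%, 16.0% and 15.4%. Replicate 4 had the smallest change most often, for 41.8% of the rises and 40.7% of the falls. Replicate 2 was the highest TG_IR array for 25.4% of the rises above 2-fold and the lowest for 38.1% of them, which shows that its place varied between probes.

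To score an array on probes it had not helped to choose, the test was repeated without each TG_IR array. The fits without replicates 1, 2, 3 and 4 called 3528, 3678, 3188 and 4051 probes. The same TG_Sham arrays chose the probes and served as reference for the array left out, so that the scores and slopes do not bear on the distance between the groups. Each array also had its own list of probes, the longest for replicate 4. For the slopes given below, each was set against a different set of 3 arrays. Part of the order can come from these differences. The score on such probes was 0.412, 0.348, 0.384 and 0.292 for replicates 1 to 4. The slope of an array's differences on the mean differences of the other 3 TG_IR arrays was 1.13, 0.914, 0.997 and 0.803. The order in both was 1, 3, 2, 4.

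The wild-type arrays offer probes chosen without any transgenic array in the contrast. I/R against sham in wild type called 983 probes (3.83%) in the fit of all 16 arrays, 423 higher and 560 lower. Over these probes the score was 0.420, 0.407, 0.377 and 0.327 on TG_IR replicates 1 to 4, against 0.016, 0.079, −0.032 and −0.063 on TG_Sham replicates 1 to 4. Here replicate 2 came second, and for the wild-type falls alone it came first, at 0.355 against 0.351 on replicate 1. The array labelled WT_IR replicate 2 was at odds with the other WT_IR arrays, for example at ILMN_2710905, where it read 487.2 and WT_Sham arrays read 410.1 to 725.5. When it was left out, as decided with these data in view, 4593 probes (17.9%) were called in wild type and gave scores of 0.362, 0.330, 0.320 and 0.267 on TG_IR replicates 1 to 4. Replicate 1 was first and replicate 4 last by both lists.

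Spread inside the groups was also compared. Over all probes the median SD between arrays was 0.026 log2 in TG_IR and 0.027 log2 in TG_Sham. Rises were more variable after I/R, with a median SD of 0.078 in TG_IR and 0.048 in TG_Sham. The SD was larger in TG_IR for 74.1% of them, against 50.7% of all probes. However, over all probes the median SD in TG_IR grew with starting brightness, from 0.020 near background to 0.124 in bright probes. The rises were brighter in TG_IR by choice. For falls the median SD was 0.065 in TG_IR and 0.067 in TG_Sham, and it was larger in TG_IR for 47.9%. Rises above 2-fold had a median SD of 0.254 in TG_IR and 0.136 in TG_Sham, whereas falls above 2-fold had 0.162 in TG_IR and 0.260 in TG_Sham. In both directions, the group in which the large movers were brighter had the wider spread.

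A few probes parted single arrays of a group. The 4 arrays spanned more than 2-fold for 59 probes in TG_IR and for 32 probes in TG_Sham, of which 17 and 5 were called, where 16.4% of all probes were. TG_IR replicate 2 stood more than 2-fold above all other TG_IR arrays for 6 probes and more than 2-fold below them for 6 probes. TG_IR replicate 4 stood that far below the others for 1 probe, and replicates 1 and 3 for 0 probes. Among TG_Sham arrays, replicates 1, 2 and 4 each stood apart for 1 probe and replicate 3 for 0.

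The arrays were assigned to 2 slides, each with 2 TG_IR and 2 TG_Sham arrays, so that the response could be measured within each slide. The assignment follows the order of the sample numbers, and the sample titles themselves name no slide. Slide 1 (replicates 1 and 2 of both groups) gave 1189 calls (4.63%), 560 higher (2.18%) and 629 lower (2.45%). Slide 2 (replicates 3 and 4) gave 3083 calls (12.0%), 1451 higher (5.65%) and 1632 lower (6.35%). The slides share no array, so calls of each could be looked up on the other. Of the 560 rises called on slide 1, 98.8% were above 0 on slide 2, where 46.7% of all probes were. Of the 629 falls, 98.6% were below 0 on slide 2, against 53.3% of all probes.

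Median sizes on the other slide were somewhat smaller. The slide 1 rises had a median of 0.48 log2 on slide 1 and 0.41 log2 on slide 2, and the slide 1 falls had −0.41 and −0.36 log2. Probes chosen on slide 2 had median rises of 0.36 log2 on slide 2 and 0.35 log2 on slide 1, and median falls of −0.32 and −0.29 log2. On the slide that did not choose them, all probes had a median within 0.01 log2 of 0. Of the 72 rises above 2-fold on slide 1, all 72 were above 0 and 56 above 2-fold on slide 2. Of the 14 falls above 2-fold on slide 1, all 14 were below 0 and 4 beyond 2-fold on slide 2. In the reverse direction, 90 of the 129 rises and 8 of the 23 falls above 2-fold on slide 2 exceeded 2-fold on slide 1. Both slides called 840 probes in the same direction, 409 rises and 431 falls, and 2 probes in opposite directions. The shared rises were 73.0% of the slide 1 rises and 28.2% of the slide 2 rises, and the shared falls were 68.5% and 26.4%.

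**Figure D5:**
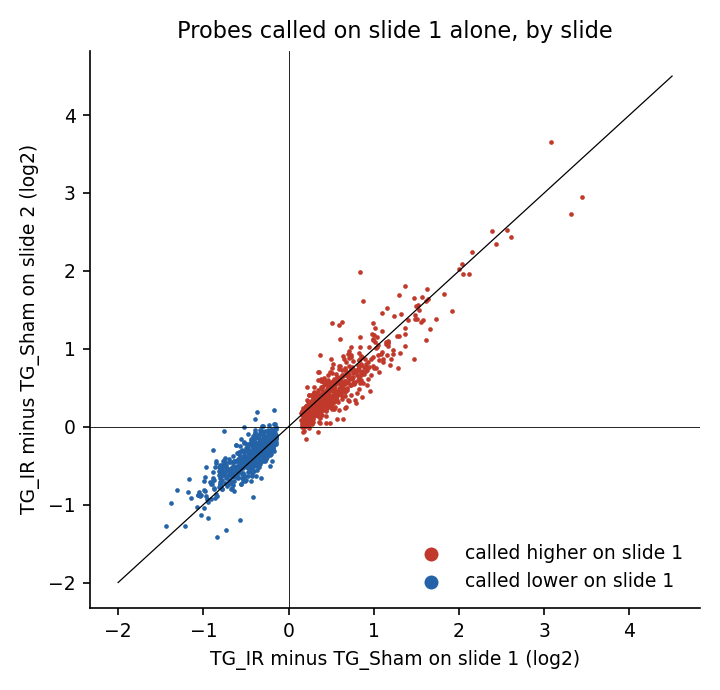
Difference TG_IR minus TG_Sham (log2) on slide 1 (horizontal) and slide 2 (vertical) for the 1189 probes called on slide 1 alone, with rises in red, falls in blue and the line of equal differences in black. The slide 2 arrays took no part in choosing these probes, and 553 of the 560 rises and 620 of the 629 falls have the same sign there.

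Against the TG_Sham arrays of their own slide, TG_IR replicates 1 to 4 scored 0.377, 0.332, 0.366 and 0.321. TG_Sham replicates 1 to 4, each against the other sham array of its slide, scored −0.017, 0.017, 0.016 and −0.016 (SD 0.019). Over all calls, the order 1, 3, 2, 4 was the same as with all sham arrays. However, replicates 1 and 3 differed by less than the sham SD, and so did replicates 2 and 4. Changes above 2-fold were not scored against the sham arrays of the same slide. Within slides, rises above 2-fold had a median of 1.28 log2 on slide 1 and 1.33 log2 on slide 2. For falls above 2-fold the medians were −1.08 and −1.14 log2. The ratio of the strongest to the weakest score over all calls was 1.17. With only the TG_Sham arrays of slide 1 as reference the ratio was 1.31, and with only those of slide 2 it was 1.28. TG_Sham arrays of slide 1 differed from those of slide 2 by more than 2-fold in 12 probes, 9 higher and 3 lower on slide 1, and TG_IR arrays did so in 1 probe.

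A different I/R response in transgenic than in wild-type hearts was tested by limma's interaction term over all 16 arrays. It called 0 probes (0%), and 1101 probes (4.28%) had an unadjusted p under 0.05. Without WT_IR replicate 2 it also called 0, with 1094 at an unadjusted p under 0.05. The smallest adjusted p was 0.888 and 0.509. A test that misses the threshold does not show that the responses are alike.

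The transgenic calls were followed in wild type, whose mice and sham arrays are separate. Of the 2079 transgenic rises, 98.0% were above 0 in wild type, against 47.6% of all probes, and of the 2124 falls 97.6% were below 0, against 52.4%. The median rise was 0.28 log2 in transgenic and 0.21 log2 in wild-type hearts, and the median fall was −0.27 and −0.20 log2. Without WT_IR replicate 2 the wild-type medians were 0.28 and −0.26 log2. Looked at from the other side, 349 of the 423 wild-type rises and 406 of the 560 wild-type falls were called the same way in transgenic hearts, and 1 was called the opposite way. Over all probes, 8.09% were called higher and 8.27% lower in transgenic hearts. Of the 126 transgenic rises above 2-fold, 61 also exceeded 2-fold in wild type, or 110 without WT_IR replicate 2. Of the 23 falls above 2-fold, 3 did so in wild type, or 13 without that array.

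The strongest rise and the strongest fall were also read in wild type. ILMN_2710905 read 6566, 487.2, 9852 and 3081 on WT_IR replicates 1 to 4, against 725.5, 604.0, 410.1 and 674.9 on WT_Sham replicates 1 to 4. The TG_IR minus TG_Sham difference exceeded the wild-type one by 1.19 log2 (SE 0.98, limma adjusted p = 0.998), and by 0.30 log2 (SE 0.54, limma adjusted p = 1) without WT_IR replicate 2. ILMN_1253966 read 272.0, 516.8, 314.0 and 362.0 on WT_IR replicates 1 to 4, against 791.6, 799.4, 624.7 and 625.6 on WT_Sham replicates 1 to 4. Its transgenic difference was lower than the wild-type one, with an interaction of −0.37 log2 (SE 0.22, limma adjusted p = 0.998), and of −0.19 log2 (SE 0.15, limma adjusted p = 1) without WT_IR replicate 2. Neither difference between genotypes passed the test. Over all 16 arrays the interaction was 1.16 log2 for ILMN_2952275 (SE 1.00, limma adjusted p = 0.998). For ILMN_2616226 it was −0.21 log2 (SE 0.49, limma adjusted p = 0.998).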

How the data were processed

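The authors deposited probe intensities, linear in scale. Biotin-labelled cRNA had been amplified from TriReagent RNA using an Illumina TotalPrep kit, per the labels' protocols. How the scanner output was background-treated and normalized was not stated in any source used here. Medians and quartiles of the arrays nearly coincide, so distributions appear to have been equalised before deposition. A change is then measured against the other probes of the same array. With no detection p-values and 4 arrays per group, precision is limited (median SE 0.019 log2 over all probes and 0.045 over calls).

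Intensities were log2 transformed as deposited, with no further background correction or normalization, and every probe was tested with limma 3.58.1 (R 4.3.3; lmFit, eBayes) on the 8 transgenic arrays, with Benjamini-Hochberg adjustment over 25697 probes and a threshold of 0.05. An unadjusted p under 0.05 was reached by 6774 probes. The interaction and the wild-type comparison used 4 group means over 16 arrays. Each sample is a mouse, per the series' design text. The fit and the score were tested on simulated data. Named probes are the 2 largest rises and the 2 largest falls among calls without overlap. Planned gene lists, marker lists and the Akip1 check could not be used, because probes are not paired with genes. Comparisons, classes and alternatives were chosen with earlier results of these data known.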

Additional observations from a re-analysis of the deposited data

Results flagged for a closer look

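In 14 searches for 1 array lying far from its group (the 4 named probes and the response score over all calls, rises and falls, in TG_IR and in TG_Sham), 2 found such a value, where chance gives about 1 per 20 searches. Both values were on TG_IR replicate 2 and concern the 2 largest rises. The searches shared arrays and the scores shared probes, so they were not independent and the chance rate is only a rough guide. ILMN_2710905 stood at 11.73 log2 there, against 12.93, 12.93 and 12.98 on TG_IR replicates 1, 3 and 4. ILMN_2952275 stood at 11.02 log2, against 11.62, 11.65 and 11.71 on the same replicates. Without TG_IR replicate 2, their rises were 3.91 and 3.53 log2, and both remained past the threshold. None of the 6 searches of the response score stood out, TG_IR replicate 4 being the farthest over all calls at 0.305.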

How the results depend on the processing

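No paired analysis was possible because no sample number in the labels is shared between groups. Each TG_Sham and TG_IR array was left out in turn, which gave 3150 to 4051 calls (1572 to 2045 higher, 1550 to 2006 lower), 106 to 140 rises and 15 to 26 falls above 2-fold, 15 to 23 rises above 4-fold, 347 to 501 rises and 56 to 90 falls near background, and 111 to 127 rises and 203 to 278 falls among bright probes. All 4 named probes passed in each of these 8 fits. Normexp gave 274 rises and 64 falls above 2-fold and 39 rises above 4-fold. Slide 1 alone (2 arrays per group) gave 1189 calls (560 higher, 629 lower), 72 rises and 14 falls above 2-fold, 12 rises above 4-fold, 35 rises and 0 falls near background, and 61 rises and 114 falls among bright probes. Slide 2 alone, also with 2 arrays per group, gave 3083 calls, and 219 rises and 13 falls near background, and testing only probes above the median gave 75 such falls, by construction. Slide as a block, quantile normalization, cyclic loess, array weights, an intensity trend, no moderation of the variance and the spread of all 16 arrays left every count within 1.5 times, and the share of rises among the calls stayed between 47.1% and 53.3% over all alternatives. By response score, slope or count of 2-fold changes, the strongest array was replicate 1 except for falls near background and wild-type falls (replicate 2). The weakest was replicate 4 except for all calls near background, rises near background and rises above 4-fold (replicate 2) and falls near background (replicate 3), and replicates 3 and 4 tied at 18 probes more than 2-fold lower. Probes more than 4-fold higher numbered 24, 17, 21 and 19 on replicates 1 to 4, fewest on replicate 2. These causes were not tested. The interaction gave 0 calls with normexp and with slide as a block (1067 and 1031 probes at an unadjusted p under 0.05 in limma). With the offset in the values and 65.9% of the probes near background, changes of dim transcripts are understated or missed. The scores against sham arrays of 1 slide, by size class and without WT_IR replicate 2, the other measures of strength and the lookup between slides were added after seeing the data.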
